A study of Mus musculus with 4 samples.

Results

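The proteasome subunit genes of the mouse were followed through brain single-cell RNA-seq after transient middle cerebral artery occlusion (tMCAO). All features whose symbol starts with Psma, Psmb, Psmc or Psmd and a number, pseudogene symbols left out, were taken, which gave 40 of 31053 features. Of these, 31 encode standard subunits, 14 of the 20S core and 17 of the 19S regulatory particle. A further 3, Psmb8, Psmb9 and Psmb10, encode the inducible catalytic subunits of the immunoproteasome and were kept apart. The others are 3 assembly chaperones of the 19S particle (Psmd5, Psmd9 and Psmd10), 2 subunits known from testis and thymus (Psma8 and Psmb11) and Psmc3ip, a meiotic recombination factor that shares the symbol pattern without being a subunit.

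The proteasome degrades proteins that carry ubiquitin. Its 20S core is a barrel of stacked alpha and beta rings whose catalytic beta subunits (Psmb5, Psmb6 and Psmb7) cut peptide bonds, and the 19S particle recognises, unfolds and feeds in the substrate with the help of its ATPases (Psmc1 to Psmc6). Under interferon, Psmb8, Psmb9 and Psmb10 are made and replace Psmb5, Psmb6 and Psmb7 in newly assembled cores, which changes the peptides that are offered on MHC class I molecules.

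The libraries came from the ipsilateral cerebral hemisphere of male mice 8 weeks old, C57/BL6 by the study's methods, 1 library for each of 4 groups. In the tMCAO groups a filament closed the middle cerebral artery for a time and the brains were taken on day 1, 3 or 7. The sham group had surgery without occlusion and was taken on day 7. With 1 library per group there was no test between groups, and the 95% intervals below cover counting error only; how many animals a library pools is not given in the sources used here.

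After filtering, 44360 of 59429 cells remained, with library medians of 2507.5 to 3731.5 UMIs (unique molecular identifiers, each standing for 1 captured transcript). Of the kept cells, 91.8 to 94.2% per library were placed in 1 of 16 classes by marker genes that hold no proteasome gene. The 5 classes with at least 50 cells in every library were compared between groups. The endothelial-like class held 4811, 6764, 5715 and 9101 cells (sham, day 1, day 3 and day 7, the order used throughout) and the microglia-like class 119, 428, 336 and 232. Any pair of libraries shared 12 to 50 cell barcodes. The sham library stood apart in interferon response genes: Isg15, an antiviral ubiquitin-like protein, was lower than in sham on every day in all 5 classes, at 0.13 to 0.82 times the sham level. Levels are given as CPM, the UMIs of a gene per 1000000 UMIs of a class in a library, and a ratio is the CPM on a day over that in sham.

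The inducible subunits had their highest levels among the 5 classes in endothelial-like cells of the sham and day 3 libraries. Psmb8, the inducible counterpart of Psmb5, stood at 435.5, 189, 490 and 225 CPM in endothelial-like cells. Its level on day 1 was 0.433 times that in sham (95% interval 0.416 to 0.452), on day 3 it was 1.125 times (1.09 to 1.16) and on day 7 0.517 times (0.498 to 0.536). Sham and day 3 were thus the high libraries, and days 1 and 7 the low ones. Psmb9, the counterpart of Psmb6, showed 213.5, 102, 346 and 147 CPM. Its day 3 level was 1.62 times that in sham (1.55 to 1.69), the highest day 3 ratio of the 3 genes, against 0.477 on day 1 and 0.689 on day 7. Psmb10, the counterpart of Psmb7, showed 284.5, 149, 311 and 150 CPM, with ratios of 0.524, 1.09 and 0.529. Summed, the 3 genes gave 933.5, 440, 1147 and 522 CPM. Because the sham library stood apart, day 3 was also used as the reference: the sum on day 1 was 0.384 times that on day 3 (0.373 to 0.394) and on day 7 0.456 times (0.445 to 0.466). Markers of other cells in the class differed between libraries too. Some sets were highest on day 3: the summed neutrophil markers were 5.24, 26.7, 85.7 and 6.25 CPM, with 1 of 8 at 0 in sham and none in the other libraries, and the summed T or NK markers 1.604, 5.01, 10.3 and 5.08 CPM, with 3, 1, 0 and 0 of 8 at 0. Others were highest on day 1, among them those of pericytes at 83.02, 205, 145 and 91.55 CPM, neurons at 236, 336, 228 and 229 CPM and microglia at 44.04, 93.6, 78.1 and 58.5 CPM, with none of 8 at 0 in any library. Their part in the levels of the inducible subunits was not tested.

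**Figure D1:**
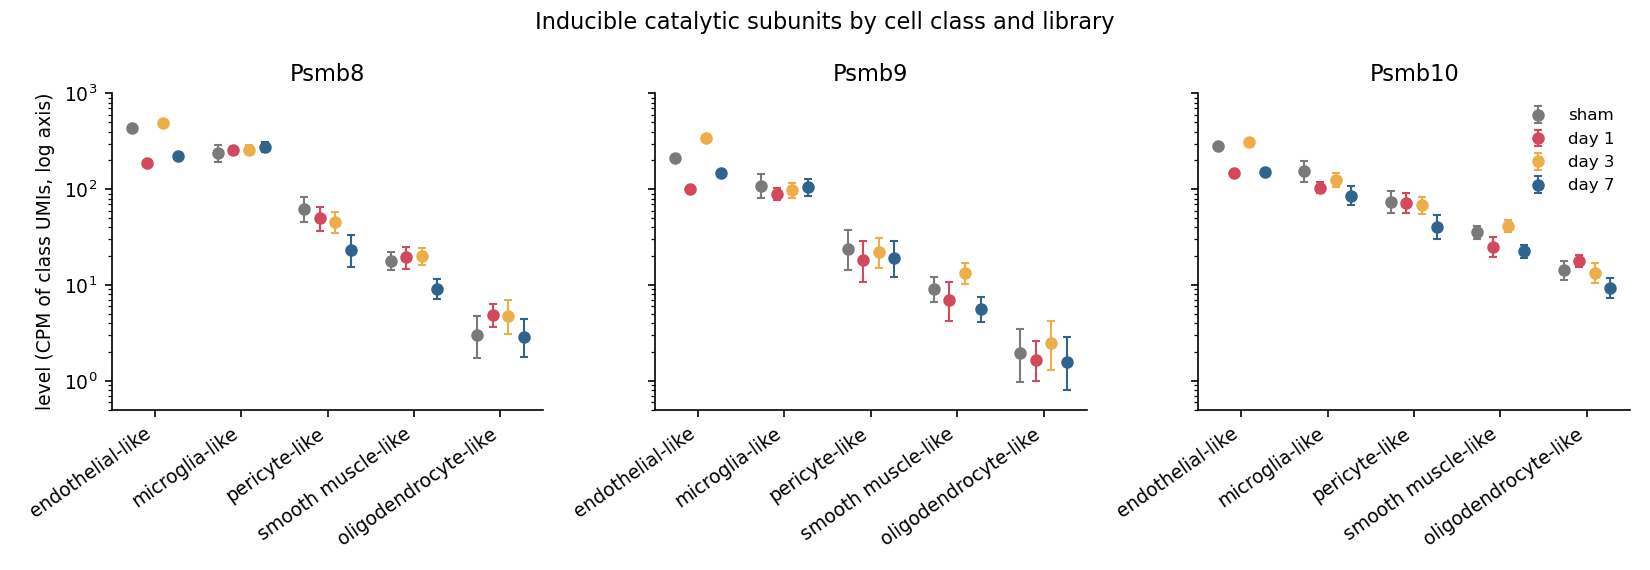
Levels of Psmb8, Psmb9 and Psmb10 (CPM of class UMIs, log axis) in the 5 classes compared, 1 point per library (sham, day 1, day 3 and day 7) with its 95% Poisson interval. The endothelial-like points of sham and day 3 lie above those of days 1 and 7 for all 3 genes, and the microglia-like Psmb8 points stay between 238 and 278 CPM.

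Bases near the starts of these genes are shown because of day 1 in endothelial-like cells. The 3 inducible genes were then below sham and the constitutive partners were not, whereas on day 7 all of them were below sham. The 250 bases before the RefSeq start in GRCm38.p6 were searched for motifs. The starts differ between annotations: GENCODE vM21 begins its models further out for Psmb8, Psmb9, Psmb10 and Psmb5, so that 250, 250, 52 and 27 of the 250 bases lie in exons of the gene itself there, against 0 for Psmb6. For Psmb10, Psmb5 and Psmb6 the bases outside these exons are printed, and for Psmb8 and Psmb9 only the motif with up to 10 bases on each side. All are read 5′ to 3′ on the strand of the gene, and capitals mark a motif. In Psmb8 (chr17:34198088-34198116, plus strand) the capitals are TTCNNNGAA, the letters of the gamma-activated site. In Psmb9 (chr17:34187331-34187348, minus strand) they are a CCAAT box read on the opposite strand, and in Psmb5 (chr14:54618023-54618245, minus strand) and Psmb6 (chr11:70525107-70525356, plus strand) they are TGACNNNGC, the core of the antioxidant response element. Psmb10 (chr8:105938445-105938642, minus strand) held none of the motifs searched.
Psmb8: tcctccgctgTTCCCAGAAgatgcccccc
Psmb9: gcagccgctgATTGGaaa
Psmb10: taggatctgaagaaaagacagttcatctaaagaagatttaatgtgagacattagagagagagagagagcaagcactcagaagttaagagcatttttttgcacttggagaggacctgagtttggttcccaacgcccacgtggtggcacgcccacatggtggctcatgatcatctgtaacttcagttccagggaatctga
Psmb5: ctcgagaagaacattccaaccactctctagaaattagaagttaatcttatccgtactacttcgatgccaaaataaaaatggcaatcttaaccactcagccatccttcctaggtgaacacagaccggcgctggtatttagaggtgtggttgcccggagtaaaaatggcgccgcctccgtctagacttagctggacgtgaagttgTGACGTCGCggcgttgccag
Psmb6: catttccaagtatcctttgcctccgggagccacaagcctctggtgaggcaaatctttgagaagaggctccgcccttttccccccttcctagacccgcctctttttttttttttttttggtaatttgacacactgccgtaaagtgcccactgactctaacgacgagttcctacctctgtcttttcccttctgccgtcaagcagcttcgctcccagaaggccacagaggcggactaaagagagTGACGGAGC

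Both strands were searched in the 33 members with an entry, and no entry was at hand for Psma8, Psmb1, Psmb2, Psmb7, Psmc3, Psmd3 and Psmd7. TTCNNNGAA was found in 7.02% of all 32851 promoters and in 1 member, Psmb8, 97 bases before its RefSeq start. TGACNNNGC was found in 10.2% of all promoters and in 5 members, in Psmb5 47 bases and in Psmb6 9 bases before the start, and further in Psmc6, Psmd9 and Psmd12. CCAAT, found in 33.8% of all promoters, was in 14 members, among them Psmb9, 8 bases before the start. The core of the interferon-stimulated response element, GAAA repeated after 2 free bases, was found in 2.98% of all promoters and in 3 members, Psmb3, Psmd4 and Psmd9, none of them inducible subunits. No motifs overlapped in the stretches printed, and a match describes letters, not a site in use. In RefSeq, Psmb9 and Tap1, a subunit of the peptide transporter of MHC class I, start 226 bases apart in opposite directions. In GENCODE their gene models overlap by 212 bases on opposite strands. Both Psmb8 (chr17:34197721-34201454, plus strand, GENCODE vM21) and Psmb9 (chr17:34181987-34187764, minus strand) lie within the MHC region, whereas Psmb10 lies at chr8:105935735-105938444 on the minus strand.

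The constitutive partners in endothelial-like cells moved less. Psmb5 stood at 218, 251, 248 and 158 CPM, Psmb6 at 275.5, 298, 283 and 201 CPM, and Psmb7 at 105, 115, 99.6 and 85.3 CPM. All 3 were lowest on day 7 and none was below sham on day 1. Of the UMIs of the 3 pairs together, the inducible subunits made up 60.9% in the sham library (60.3 to 61.5) and 39.8% in that of day 1 (39.1 to 40.5). In the day 3 library they reached 64.5% (63.95 to 65.05) and in the day 7 library 54.0% (53.4 to 54.7). The intervals of the 4 libraries did not overlap. By pair, Psmb8 took 66.6, 42.9, 66.4 and 58.7% of its pair with Psmb5. Psmb9 took 43.7, 25.4, 55.0 and 42.2% of its pair with Psmb6, and Psmb10 took 73.1, 56.6, 75.7 and 63.8% of its pair with Psmb7. Each pair was at its lowest on day 1, and the pairs of Psmb9 and Psmb10 were at their highest on day 3. Sham and day 3 could not be told apart by their intervals for Psmb8 with Psmb5.

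**Figure D2:**
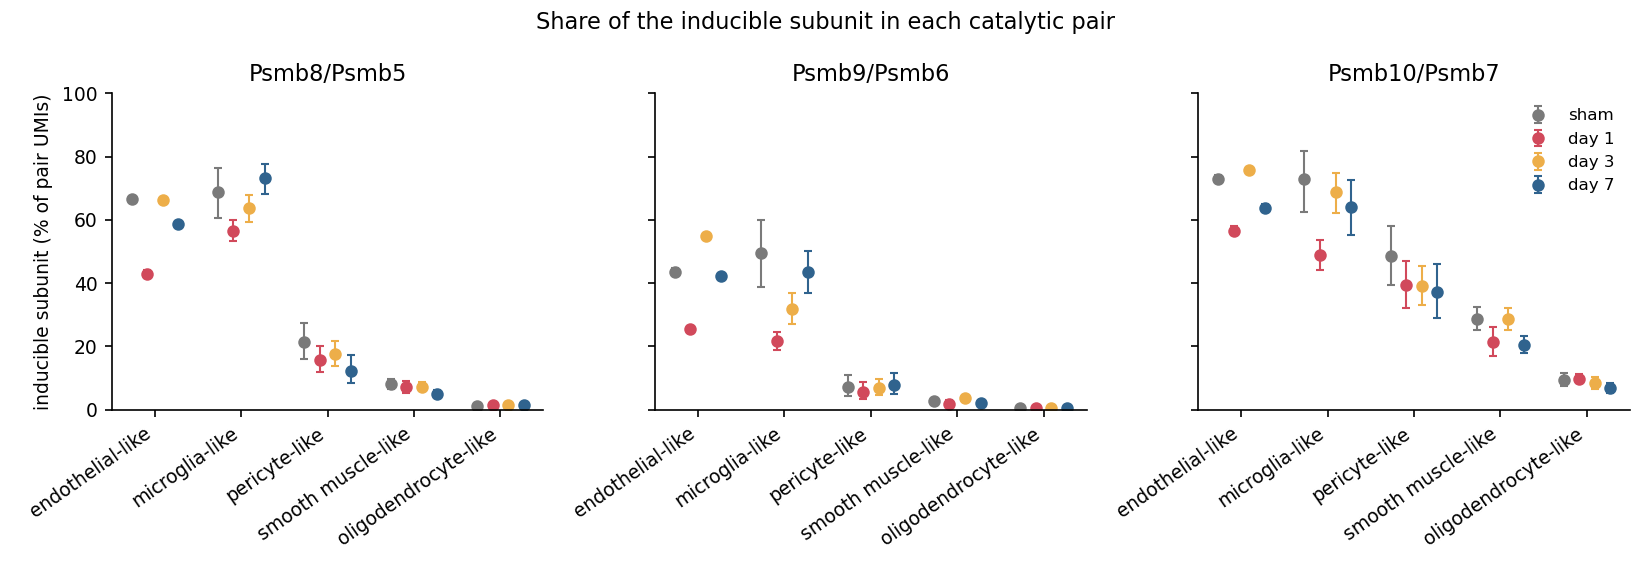
Inducible subunit as a percent of the UMIs of its pair (Psmb8 with Psmb5, Psmb9 with Psmb6, Psmb10 with Psmb7) by class, 1 point per library with its exact binomial 95% interval. In endothelial-like cells each pair is lowest on day 1, and in oligodendrocyte-like cells the share stays near 0 for Psmb8, at 1.22 to 1.597%.

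The difference was also seen over single cells. When every cell was thinned to 1000 UMIs, 52.8, 33.4, 57.9 and 35.7% of endothelial-like cells held a UMI of Psmb8, Psmb9 or Psmb10, against 2.40, 2.84, 2.08 and 1.15% of oligodendrocyte-like cells. Before thinning the endothelial-like shares were 72.8, 51.6, 74.9 and 54.1% at median depths of 2871, 1876, 2238 and 1992 UMIs, and the oligodendrocyte-like shares were 13.1, 10.8, 11.4 and 7.25% at 7913, 4861.5, 6718 and 6329 UMIs. Thinning left out 614, 1572, 692 and 1562 endothelial-like cells and 18, 6, 3 and 53 oligodendrocyte-like cells. The order of the endothelial-like libraries was the same with and without thinning.

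Depth within the class touched the size of these ratios but not the direction of the sum. In endothelial-like cells of at least 3000 UMIs the inducible sum was 0.450, 1.21 and 0.576 times that in sham on days 1, 3 and 7, in cells of 1500 to under 3000 UMIs 0.666, 1.51 and 0.687 times, and in cells under 1500 UMIs 0.791, 1.74 and 0.790 times. Of the single genes, Psmb9 moved furthest with depth on day 1. It was then at 0.434 times sham in the deepest of these cells, at 0.779 in the middle and at 0.9045 (0.710 to 1.16) in the shallowest. On day 7 it was at 0.698, at 0.937 (0.830 to 1.06) and at 0.993 (0.787 to 1.26), so that a lower level was not seen under 1500 UMIs on day 1 or under 3000 UMIs on day 7. Cells without a UMI of 9 arterial and venous marker genes gave 0.510, 1.39 and 0.517, and cells with one gave 0.458, 1.18 and 0.569. Any UMI of these genes was enough to place a cell among the latter, so the split does not establish vessel type.

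The genes that surround the immunoproteasome in antigen presentation were counted in the same cells. A fold of 1.5 was used as the limit, and of all 12095 genes tested in endothelial-like cells on day 1, 12.3% were at least that much higher than in sham and 9.96% at least that much lower. On day 1, 6 of 9 genes of MHC class I peptide supply were lower by this limit and none was higher, and the median ratio of the 9 was 0.597, beside 0.967 over all genes. Tap1 had 101.5, 34.8, 150.5 and 66.5 CPM, and its day 1 level was 0.343 times that in sham. Nlrc5, the activator of MHC class I genes, had 20.5, 4.55, 32.7 and 11.2 CPM, so that it was again low on days 1 and 7 and high on day 3. H2-K1, a classical heavy chain, had 1480, 849, 2187 and 1528 CPM, and B2m, the light chain, 1406, 859, 1733 and 1411 CPM, which put day 7 close to sham for both. On day 3, 2 of the 9 genes, Nlrc5 (1.597 times sham) and Irf1 (1.70 times sham), an interferon-responsive transcription factor, were higher and none was lower, against 9.15% higher and 7.08% lower among all genes. On day 7, Tap1 (0.655) and Nlrc5 (0.547) were lower and none was higher, against 4.64% lower and 15.4% higher among all genes.

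The 10 interferon response genes did not all follow this course. In endothelial-like cells 9 of 10 were lower than in sham by the 1.5-fold limit on day 1, 6 were lower and 2 higher on day 3, and 9 were lower on day 7. Among all genes 9.96, 7.08 and 4.64% were lower on these days, and 9.15% were higher on day 3. Their median ratios were 0.175, 0.347 and 0.365. The 2 higher genes were Gbp2 and Igtp, both GTPases known from the response to interferon gamma. Gbp2 had 139, 48.2, 263 and 95.2 CPM and Igtp 160.5, 33.5, 336 and 78.4 CPM, the order of libraries seen for Psmb9. Isg15 had 1930, 271, 560 and 334 CPM and Ifit3, an antiviral protein, 761, 81.3, 212 and 166 CPM, so sham was far above the other libraries for both. The sham library and the sham condition cannot be told apart here, and the part of these interferon genes in the sham level of the inducible subunits was not tested.

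The proteasome activators split in the same manner. Psme1 and Psme2, the subunits of the interferon-inducible PA28 cap, had 425, 269, 445 and 253 CPM and 253, 156, 281 and 156 CPM in endothelial-like cells. Their ratios were 0.633, 1.05 and 0.595 for Psme1 and 0.615, 1.11 and 0.615 for Psme2. Psme4, the PA200 activator of the nucleus, had 42.9, 41.2, 36.4 and 52.8 CPM and was within the 1.5-fold limit on all days. Of the 5 genes of this list, Psme1 and Psme2 were lower past the limit on days 1 and 7, against 9.96 and 4.64% of all genes, and none was past it on day 3.

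Further genes of the pathway were mostly within the limit in endothelial-like cells, where 12.3, 9.15 and 15.4% of all genes were higher and 9.96, 7.08 and 4.64% lower on days 1, 3 and 7. The lists are short, so that single genes past the limit are given as values and not as a result about their list. Of 5 chaperones of core assembly none passed on any day, and Pomp, which completes the core, had 599, 756, 710 and 425 CPM, above sham on days 1 and 3 and below it on day 7. Of 4 other 19S subunits and deubiquitinases, Sem1 was higher on day 1 (487.5, 774, 619 and 406 CPM, a ratio of 1.59), and Adrm1, a ubiquitin receptor, was lower on day 7 (103, 81.1, 103 and 62.85 CPM, a ratio of 0.608). Nfe2l1, the transcription factor that drives proteasome genes when degradation is impaired, had 207, 126, 127 and 176 CPM and was the 1 of 3 regulators past the limit, on days 1 and 3. Ubb, a polyubiquitin gene, was lower on day 7 (3299, 3277, 3345 and 2057 CPM). Of 7 ubiquitin shuttles and p97 genes, Ubqln2, a shuttle, was higher on day 7 (23.9, 33.1, 29.2 and 40.8 CPM, a ratio of 1.71).

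In microglia-like cells the inducible subunits were nearly level across the libraries. Psmb8 had 238, 255, 258 and 278 CPM, with ratios of 1.07 (0.864 to 1.34), 1.09 (0.865 to 1.37) and 1.17 (0.923 to 1.49). Psmb9 had 109, 89.2, 97.8 and 104.5 CPM. Psmb10 was the exception at 155, 104, 125.5 and 86.01 CPM, its day 1 ratio being 0.674 (0.508 to 0.905) and its day 7 ratio 0.5565 (0.396 to 0.785). The sum of the 3 genes was 0.894 (0.769 to 1.04), 0.960 and 0.933 times that in sham, and all 3 of these intervals held 1. The inducible share of the 3 pairs was nevertheless 64.5, 41.7, 53.8 and 62.1%, with the constitutive partners as the ones that differed. In sham, the summed level in endothelial-like cells was 1.86 times that in microglia-like cells (1.62 to 2.14), whereas on day 1 it was 0.981 times. Of the MHC class I list, 4 of 8 genes tested in microglia-like cells were at least 1.5-fold lower on day 1. Of all genes tested in the class, 25.8% were. On day 3 Erap1 was higher and Irf1 lower of the 8 tested, against 17.3% and 10.4% of all genes. On day 7 B2m and H2-D1 were higher and 2 others lower of the 7 tested, against 14.5% and 8.94% of all genes. Of the interferon list, 4 of 5, 5 of 5 and 6 of 6 genes tested were lower on days 1, 3 and 7, where 25.8, 10.4 and 8.94% of all genes were.

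The other classes held less. The 3 genes summed to 161, 139.5, 135 and 83.2 CPM in pericyte-like cells and to 62.8, 51.3, 74.4 and 37.1 CPM in smooth muscle-like cells. Day 7 was the low library in both, at 0.517 times sham (0.393 to 0.680) and 0.591 times sham (0.501 to 0.697). The smooth muscle-like order of the other days depended on the setting: the day 1 sum was 0.449 to 1.06 times sham and the day 3 sum 0.575 to 1.71 times over the alternatives, so neither direction held under all of them. In pericyte-like cells Psmb8 had 62.5, 49.55, 45.3 and 23.3 CPM, and in smooth muscle-like cells 18.03, 19.4, 20 and 9.09 CPM. Oligodendrocyte-like cells had 19.2, 24.3, 20.6 and 13.8 CPM for the sum, of which Psmb10 gave 14.2, 17.75, 13.4 and 9.37 CPM. Of the MHC class I list, 5 of 6 genes tested in this class were at least 1.5-fold higher on day 1. On day 3 it was 4 of 5 and on day 7 2 of 4, and none was lower on any day. Of all genes, 20.3, 8.98 and 28.2% were past the limit either way. The summed microglia markers in the class were 19.2, 45.5, 47.3 and 33.2 CPM, and their part was not tested. In sham the endothelial-like sum of the inducible genes was 5.80 times that of pericyte-like cells (4.85 to 6.996), 14.9 times that of smooth muscle-like cells and 48.7 times that of oligodendrocyte-like cells. Among classes with 50 cells in only some libraries, T or NK-like cells of day 7 (94 cells) had the highest sum at 1325 CPM (1220 to 1437), above neutrophil-like cells of day 3 (502 CPM, 51 cells) and border macrophage-like cells of day 1 (467 CPM, 75 cells). Neuron-like cells had 48.4 to 69.55 CPM and astrocyte-like cells 74.25 to 78.5 CPM, 2 classes whose intervals overlapped.

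The standard subunits showed another pattern, with microglia-like cells of day 1 as the outstanding library. There the 31 standard genes summed to 2906, 4392, 3023 and 2627 CPM, and the day 1 sum was 1.51 times that in sham (1.42 to 1.61). Days 3 and 7 were at 1.04 (0.975 to 1.11) and 0.904 (0.844 to 0.969), and after thinning to 1000 UMIs a cell day 7 turned to 1.11. On day 1, 13 of 31 standard genes were at least 1.5-fold higher than in sham and none was at least 1.5-fold lower, against 25.1% higher and 25.8% lower among all 5087 genes tested. Of the 31, 26 were above sham, against 49.7% of all genes. The median log2 ratio of the 31 was 0.46, beside a median of -0.01 over all genes tested.

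By role, the excess lay mostly in the 20S core, whose transcripts are shorter in median than those of the 19S particle. All 3 constitutive catalytic genes passed the limit, which 25.1% of all genes did in this direction. Psmb6, the caspase-like subunit, had 112, 322, 209 and 136 CPM and a day 1 ratio of 2.88 (2.14 to 3.96). Psmb7, the trypsin-like subunit, had 57.1, 109, 57.04 and 47.9 CPM, a ratio of 1.905 (1.247 to 3.04), and Psmb5, the chymotrypsin-like subunit, 107, 195, 147.5 and 101 CPM, a ratio of 1.83 (1.34 to 2.545). Of the 4 structural beta genes Psmb2, Psmb3 and Psmb4 passed, led by Psmb3 with 112, 268, 100.2 and 97.99 CPM. Of the 7 alpha ring genes, which form the gate of the barrel, Psma1, Psma5 and Psma7 passed, with ratios of 1.84, 1.67 and 1.61. In the 19S particle 2 of 6 ATPases passed, Psmc1 (1.70) and Psmc3 (2.08), and 2 of 8 lid genes, Psmd8 (1.897) and Psmd13 (2.34), which are structural parts of the lid, so that the lid was at the share of all genes and the ATPases near it. None of the 3 non-ATPase base genes passed. Psmd3, another lid gene, had 76.1, 61.1, 44.8 and 33.75 CPM and was lowest on day 7, at 0.444 times sham (0.262 to 0.751).

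On day 3, Psmb6 (1.87, 1.36 to 2.605) and Psmd13 (1.65, 0.954 to 3.03) were at least 1.5-fold higher in microglia-like cells and Psmd3 (0.589, 0.374 to 0.941) was lower, against 17.3% higher and 10.4% lower among all genes. On day 7, Psmd13 (1.80) and Psmd1 (1.62), a scaffold of the base, were higher and Psmd3 and Psmd2 (0.584), the other scaffold, were lower among the 30 standard genes tested, against 14.5% and 8.94%. With 119 microglia-like cells in sham, most of these genes rested on few UMIs there, 16 for Psmd13 and 32 for Psmd3.

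Of the partners of the proteasome, some lists moved with it in microglia-like cells of day 1 and others did not. Pomp, the chaperone that completes the 20S core, had 223.5, 436, 277 and 263.5 CPM, and 3 of 5 core assembly chaperones (Pomp, Psmg1 and Psmg4) passed the limit, against 25.1% of all genes. Psmg1 (1.63, 0.737 to 4.235) and Psmg4 (1.81, 0.992 to 3.61) rested on 7 and 12 sham UMIs, and both intervals held 1. Of 4 other 19S subunits and deubiquitinases, 3 passed the limit (Sem1, Uchl5 and Usp14), against 25.1% of all genes. Sem1, the smallest 19S subunit, had 159, 560, 295 and 211 CPM, a day 1 ratio of 3.51 (2.74 to 4.566). Uchl5 (1.897, 0.913 to 4.56) and Usp14 (1.62, 0.976 to 2.87) rested on 8 and 17 sham UMIs, and both intervals held 1. Psmd9, a 19S assembly chaperone, was at 2.19 (1.15 to 4.705) on 10 sham UMIs. None of the 3 activator genes, 3 regulators and 5 shuttle and p97 genes tested was past the limit. Summed over all genes of the list, tested or not, the activators were at 0.825 times sham (0.715 to 0.954), the regulators at 1.06 (0.872 to 1.31) and the shuttles and p97 at 1.102 (0.910 to 1.34). Psme1 was at 0.7555 (0.628 to 0.913). Ubb was lower, with 3101, 1990, 2807 and 1781 CPM. Other cells' markers in the class differed too. The summed border macrophage markers were 90.4, 520, 290 and 260 CPM, with 5, 1, 1 and 3 of 8 markers at 0, and the summed endothelial markers 338, 145, 235.5 and 270 CPM, with none of 8 at 0. Their part in these ratios was not tested, and in border macrophage-like cells themselves no sham level with 50 cells was at hand.

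**Figure D3:**
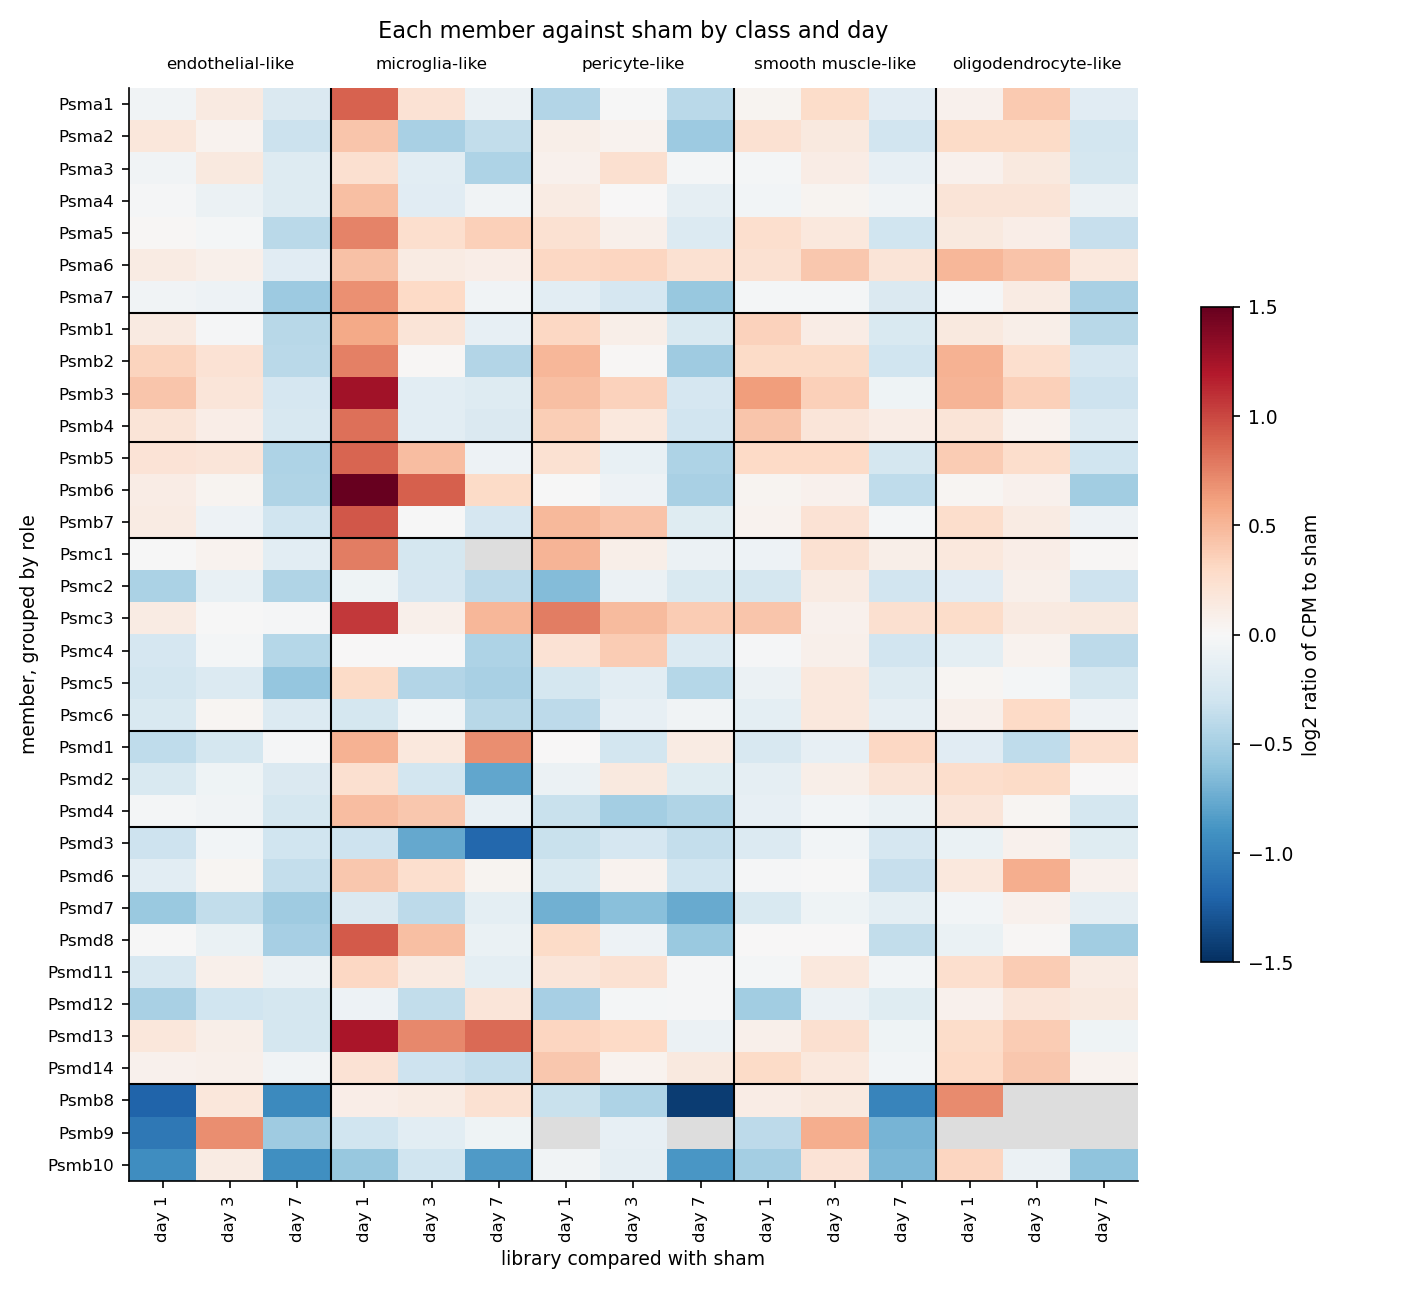
Log2 ratio of CPM to sham for the 31 standard members, grouped by role between the black lines, and for Psmb8, Psmb9 and Psmb10 in the last block, for each class and day. Grey fields had too few UMIs (under 50 over sham and the day). The day 1 column of microglia-like cells is red for most members, the day 7 columns are mostly blue, and in the last block the lowest ratio is that of Psmb8 in pericyte-like cells on day 7 (0.373), followed by Psmb8 (0.433) and Psmb9 (0.477) in endothelial-like cells on day 1.

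In endothelial-like cells the standard list was flat until day 3 and lower on day 7. The 31 genes summed to 5297, 5286, 5313 and 4233 CPM, which gave ratios of 0.998 (0.989 to 1.01), 1.003 (0.994 to 1.01) and 0.799 (0.792 to 0.806). No standard gene passed the 1.5-fold limit on day 1 or 3, and 1 did on day 7, Psmc5, an ATPase, at 0.666 times sham. The share of all genes past the limit was 12.3% higher and 9.96% lower on day 1, 9.15% higher and 7.08% lower on day 3, and 15.4% higher and 4.64% lower on day 7, so 1 of 31 on day 7 was near the background. All 31 genes were below sham on day 7, against 39.4% of the 12134 genes tested. The median gene of the transcriptome stood at 1.09 times sham on day 7 (log2 0.13), so that relative to it the list was lower still, at 0.731. These values went with depth: the list was at 0.975, 0.982 and 0.804 times sham in cells of at least 3000 UMIs, at 1.265, 1.21 and 0.950 times in cells of 1500 to under 3000 UMIs and at 1.30, 1.22 and 1.005 times in cells under 1500 UMIs. In the last of these the day 7 interval (0.968 to 1.04) held 1, so no lower level was seen there.

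Within the flat sum on day 1, the 20S core and the 19S particle went apart. The 14 core genes summed to 1.085 times sham (1.07 to 1.098) and the 17 particle genes to 0.873 times (0.860 to 0.886). Psmb3 had 205.5, 273, 233 and 172 CPM and Psmb2 204.5, 258, 238 and 155 CPM, both structural beta subunits with day 1 ratios of 1.33 and 1.26. On the other side, Psmd7, the inactive partner of the deubiquitinase of the lid, had 225, 153.5, 174 and 155 CPM, a day 1 ratio of 0.683 (0.649 to 0.718). Psmd12, a lid scaffold, had 120, 85.8, 97.7 and 99.85 CPM, and Psmc2, an ATPase, 136, 97.7, 125.6 and 99.7 CPM. Psmd12 was lowest on day 1, whereas the levels of Psmd7 on days 1 and 7 could not be told apart by their intervals. Psma7, an alpha ring gene, had 387, 373, 366 and 265 CPM and was lowest on day 7.

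UMIs of the core per UMI of the particle gave the same order of days in all 5 classes. Endothelial-like cells had 1.44, 1.79, 1.596 and 1.40 core UMIs per particle UMI, with an interval of 1.76 to 1.81 on day 1 against 1.42 to 1.46 in sham. Microglia-like cells had 1.345, 1.79, 1.47 and 1.36, and pericyte-like cells 1.39, 1.64, 1.53 and 1.32. Smooth muscle-like cells had 1.40, 1.69, 1.51 and 1.335, and oligodendrocyte-like cells 1.48, 1.66, 1.525 and 1.30. Day 1 was the highest and day 3 the second in each class, and day 7 was below sham in 4 of 5, microglia-like cells being the exception. The intervals of sham, day 3 and day 7 overlapped in microglia-like cells, as did those of sham and day 3 in oligodendrocyte-like cells. In pericyte-like cells the interval of sham overlapped those of days 3 and 7, and that of day 1 overlapped that of day 3, so only day 1 stood apart from sham there. The day 7 direction of endothelial-like cells went with depth. Relative to sham, their day 7 value was 0.970 over the class, 0.959 in cells of at least 3000 UMIs, 1.115 in cells of 1500 to under 3000 UMIs, 1.30 in cells under 1500 UMIs and 1.02 in cells without arterial or venous markers, whereas days 1 and 3 were above sham in each of these subsets.

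**Figure D4:**
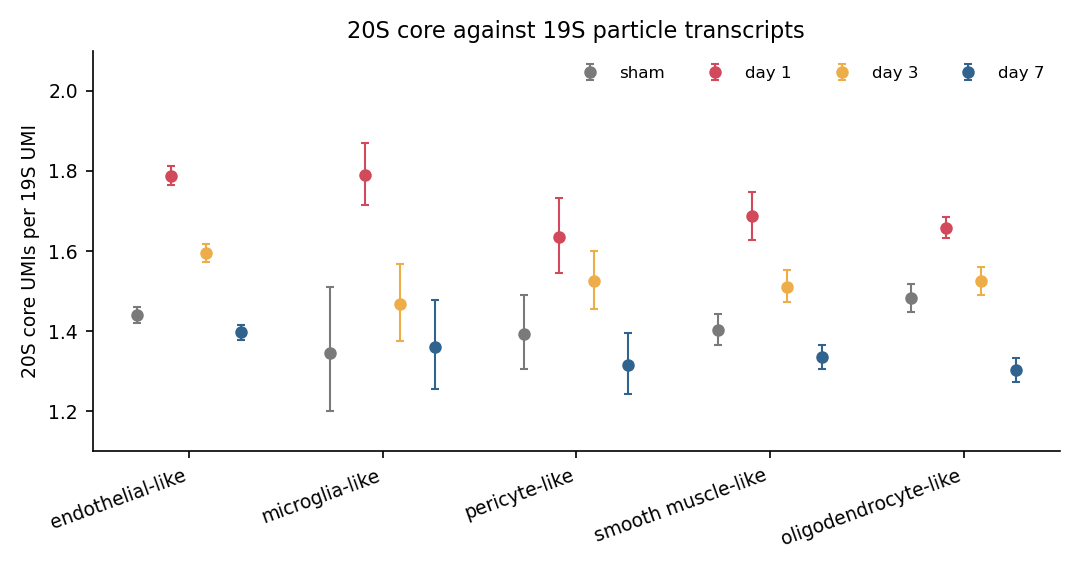
UMIs of the 14 genes of the 20S core per UMI of the 17 genes of the 19S particle, by class and library, with 95% intervals (the axis starts at 1.1). Day 1 points lie between 1.64 and 1.79 and sham points between 1.345 and 1.484 across the 5 classes.

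Transcript length went along with this split in most comparisons but not in all. The median transcript of the core genes was 975 bases and that of the particle genes 1526 bases. Among other genes of endothelial-like cells, those under 1500 bases had a median day 1 ratio of 1.035 and longer ones 0.933, and in microglia-like cells 1.20 and 0.859. In microglia-like cells short over long genes was thus 1.402 on day 1, more than the core per particle at 1.331 times sham. In endothelial-like cells these values were 1.109 and 1.242, and in each other class core per particle was also the larger on day 1. On day 7 the short genes were the lower ones in all 5 classes, with medians of 0.887 to 1.02 against 1.06 to 1.23. Scaled to the short genes, the standard list of microglia-like cells was at 1.247 times sham on day 1, and that of endothelial-like cells at 0.865 on day 7. The exceptions were pericyte-like cells on day 3, where the median ratio of short genes over that of long ones was 0.978 while core per particle was 1.09 times sham, and microglia-like cells on day 7, at 0.965 and 1.01. How far length enters the difference between core and particle was not tested.

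**Figure D5:**
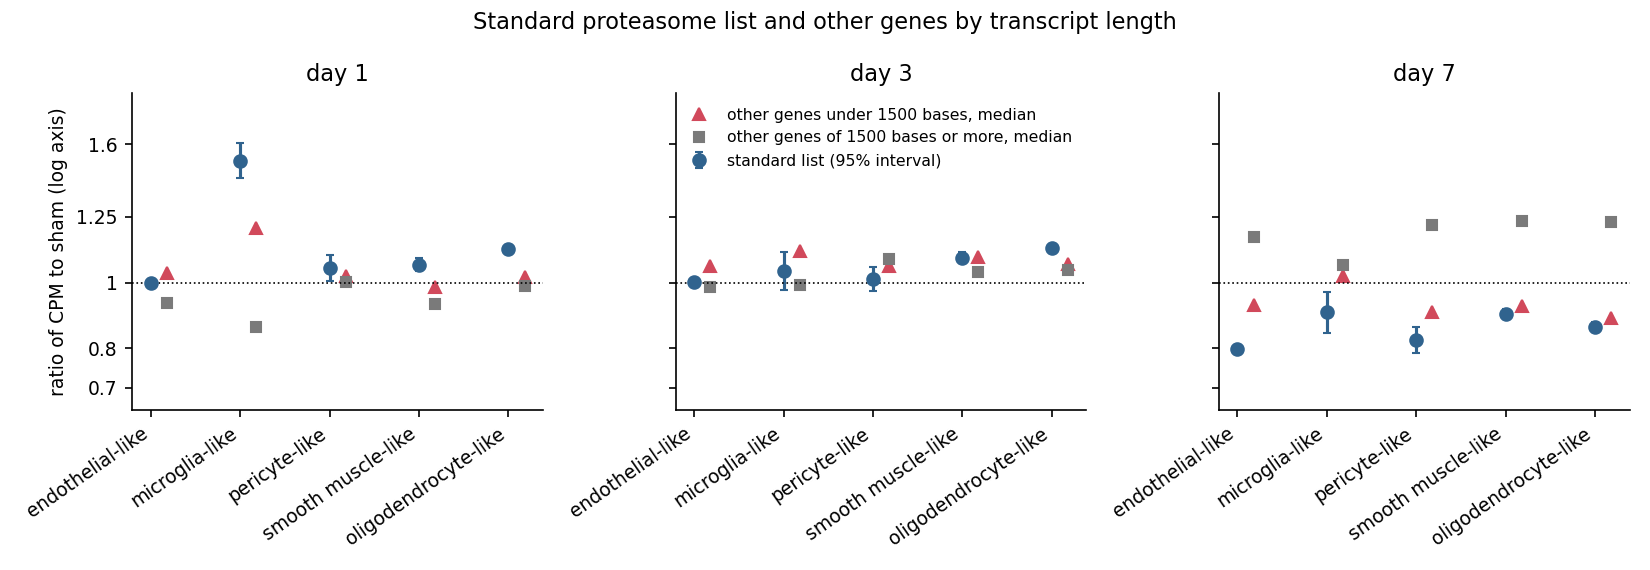
Ratio of CPM to sham (log axis) on each day for the standard list (circles, 95% interval) in the 5 classes, beside the median ratio of other genes with transcripts under 1500 bases (triangles) and of 1500 bases or more (squares). On day 1 the microglia-like list lies at 1.51 above both medians, and on day 7 every list lies below 1 and below both medians.

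In pericyte-like, smooth muscle-like and oligodendrocyte-like cells the standard list moved little on days 1 and 3 and was lower on day 7. Pericyte-like cells had 4860, 5106, 4922 and 4002 CPM. On day 1, 3 of 31 standard genes were past 1.5-fold, against 22.0% of all genes. These were Psmc3 at 1.70 (1.27 to 2.306), an ATPase, and Psmd7 and Psmc2 at 0.606 and 0.637. Psmd7 alone was past the limit on day 3 (0.648, against 14.8% of all genes) and on day 7 (0.593, against 25.8%), with 203.5, 123, 132 and 121 CPM in the 4 libraries. On day 7, 27 of 31 were below sham, against 40.6% of all genes.

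Smooth muscle-like cells had 4457, 4736, 4851 and 4009 CPM for the list. Psmb3 was the only standard gene past the limit there, on day 1 at 1.54 (1.39 to 1.70), with 171, 263, 219 and 163 CPM. The share of all genes past the limit was 19.3% on day 1, 10.2% on day 3 and 27.2% on day 7. On day 7, 25 of 31 standard genes were below sham, against 38.4% of all genes, and Psmd1 (69.4, 58.9, 63.9 and 86.02 CPM) was the one furthest above it.

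Oligodendrocyte-like cells had 5134, 5759, 5769 and 4414 CPM and no standard gene past the limit, against 20.3, 8.98 and 28.2% of all genes on days 1, 3 and 7. On day 1, 24 of 31 were above sham, against 50.2% of all genes, and on day 3, 29 of 31, against 60.8%. Day 1 was led by Psmb2 at 1.43 (253, 362, 301 and 213 CPM) and Psmb3 at 1.43 (202, 288, 259 and 163 CPM). The summed neuron markers in the class were 111, 472, 116 and 158 CPM, so that day 1 was high and day 3 close to sham, with 0, 0, 2 and 1 of 8 at 0, and their part in the day 1 ratios was not tested. On day 7, 22 of 31 were below sham, against 40.0%, and Psmb6 had the lowest ratio at 0.697, with 381, 388.5, 398 and 266 CPM. In microglia-like cells 22 of 30 were below sham on day 7, against 44.9%, but there the sum was above sham after thinning. On the scale of the median gene, the day 7 shift over all genes was 0.13 to 0.16 (log2) in endothelial-like, pericyte-like, smooth muscle-like and oligodendrocyte-like cells and 0.06 in microglia-like cells.

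The remaining members were low or class-bound. Psma8, the alpha subunit of the testis proteasome, had 677 of its 733 UMIs in endothelial-like cells, at 10.4, 8.80, 8.55 and 9.38 CPM, against 5.002 CPM in pericyte-like cells pooled over libraries and 0.068 CPM in oligodendrocyte-like cells (2 UMIs). Its endothelial-like intervals overlapped between libraries. Psmb11, the thymus-specific catalytic subunit, had 16 UMIs in all classes together. Psmc3ip had 124 of its 1271 UMIs in the 209 ependymal-like cells, at 134 CPM pooled (112 to 160), while neuron-like cells had 22.4 CPM and endothelial-like cells 7.86 CPM. The 19S assembly chaperones in endothelial-like cells were Psmd5 with 29.5, 31.7, 30.35 and 34.3 CPM, Psmd9 with 56.01, 56.7, 54.1 and 46.2 CPM and Psmd10 with 33, 29.4, 31.97 and 26.1 CPM, all within the 1.5-fold limit.

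Reads of Psmd1 and Psma2 could be shared with the overlapping features Gm21972 and AW209491 on the same strand, so both levels are uncertain.

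Across the 35 sums of a class in a library with at least 50 cells, the genes whose log2(CPM + 5) went most closely with the summed inducible subunits, of 7503 ranked, were B2m (r = 0.935), H2-T23 (0.927) and H2-D1 (0.915), followed by Srgn, Tap1, Arf6, Lgals9, Sp100, Ly6e and H2-K1. For the standard list they were Chchd1 (0.927), U2af1 (0.921) and Cct7 (0.907), then Stoml2, Vdac3, Polr2f, Selenow, Rbx1, Polr2g and Rpp30. These sums share their libraries and depths, and the correlations are a description. Among the standard genes themselves, Psmb7 followed the rest of the list most closely (r = 0.931), and Psma1 (0.320) and Psmd8 (0.551) least.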

How the data were processed

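The authors deposited 4 matrices of raw UMI counts, not normalized, from 10x Genomics single-cell libraries of mouse brain, already filtered to called cells. The matrix headers name Cell Ranger 4.0.0, whereas the submitters' processing notes and the study's methods name Cell Ranger 3.0.1, a human reference build and Seurat 4.1.2. The features were mouse Ensembl identifiers, and gene positions were read from GENCODE vM21 (GRCm38) and start sites and promoters from RefSeq tables of GRCm38.p6. The annotation that the authors counted with is not given in the sources used here. The proteasome pseudogenes Psmb5-ps, Psmb6-ps, Psmb6-ps2 and Psmb7-ps2 were not among the features.

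Kept were cells that had 200 to 3000 genes and no more than 10% of UMIs from mitochondrial genes, the limits of the study's methods. This left 7562, 13376, 9378 and 14044 cells in the 4 libraries, 44360 in total. The study reports more cells after filtering in every group. The microglia-like class held 1.574, 3.2, 3.583 and 1.652% of kept cells. The share of microglia that the study reports is several-fold larger in every group, most of all on day 1. Values of the microglia-like class therefore need not hold for all cells that the study called microglia. The reasons for these gaps were not tested. A cell was placed in the class with the most markers detected when at least 3 were found and at least 2 more than for any other class, and the classes are called by that gate (endothelial-like and so on). Doublets were kept. UMIs were summed per class and library and scaled to 1000000, and genes with at least 50 UMIs over sham and the day were compared. With 1 library per group there was no test. Levels carry exact Poisson intervals, ratios exact conditional intervals and shares exact binomial (Clopper-Pearson) intervals at 95%. Full values are given for the catalytic pairs, and per class and day the 3 standard members with the highest and the 3 with the lowest ratio were eligible for naming, as were genes of the context lists past 1.5-fold and the 10 genes that went most closely with each list. Psmd1, Psmd3, Psmd9, Psmd12, Psmc3, Psma7 and further members named with values fall under this rule or were named by role after their values were seen. Some genes of the context lists are not reported here. The members, lists and classes were chosen with earlier results of these data known.

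Alternatives were no upper gene limit, a mitochondrial limit of 5%, a looser and a stricter gate, classes from Leiden clusters, thinning to 1000 UMIs, other scalings, a fold of 1.25 and other minimum counts. A comparison by depth, by arterial and venous markers, by a minimum in CPM and by short transcripts was added after seeing the data. Python 3.11.15 with numpy 2.4.6, pandas 2.3.3, scipy 1.17.1, scanpy 1.11.5 and matplotlib 3.10.9 was used, and the calculations were tested on simulated data. Before filtering the libraries held 69392755 to 104023002 UMIs, and the number of cells of a class sets the precision of its values.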

Additional observations from a re-analysis of the deposited data

How the results depend on the processing

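Of 145 values of the main comparisons under another setting, 87 stayed within the counting interval or within 1.5 times the count, 57 moved beyond it and 1 changed direction, while over all values the settings gave 379, 146 and 7 of 532. A change of direction was counted only where the reported interval excluded 1, so that crossings of 1 by values whose interval held 1 are among those that stayed or moved. The cause was not tested for any of them. In endothelial-like cells the standard list on days 1, 3 and 7 was at 1.01, 0.962 and 0.780 without the upper gene limit, at 0.986, 0.983 and 0.791 with a mitochondrial limit of 5%, at 1.025, 1.02 and 0.8185 with classes from clusters, at 1.06, 1.05 and 0.833 after thinning, at 1.03, 1.05 and 0.807 without cells that held arterial or venous markers, at 1.265, 1.21 and 0.950 in cells of 1500 to under 3000 UMIs, at 1.03, 0.989 and 0.731 when scaled by the median gene and at 0.964, 0.949 and 0.865 when scaled by genes under 1500 bases. The median of single genes was 0.987 on day 1 and 0.833 on day 7, and without the member with the most UMIs day 7 was at 0.808. The endothelial-like inducible sum was at 0.3845, 1.097 and 0.543 without the upper gene limit and at 0.488, 1.26 and 0.573 with classes from clusters. It was at 0.513, 1.26 and 0.580 after thinning and at 0.666, 1.51 and 0.687 in cells of 1500 to under 3000 UMIs. Cells without a UMI of the arterial and venous marker genes gave 0.510, 1.39 and 0.517. Scaled by the median gene the sum was at 0.487 on day 1 and 0.512 on day 7. Days 1 and 7 were thus below and day 3 above sham under each of these settings. The inducible share without the upper gene limit was 62.7% in sham, 36.8% on day 1 and 55.8% on day 7. In microglia-like cells the standard list on day 1 was at 1.81 without the upper gene limit, 1.73 after thinning, 1.38 as the median of single genes and 1.247 when scaled by genes under 1500 bases, and the 13 genes past 1.5-fold became 21 without the upper gene limit and 20 at the lower fold limit, all higher, where 27.7 and 35.1% of all genes were higher against 25.1% before. On day 3 that list was at 1.18 without the upper gene limit, 1.23 after thinning and 0.936 when scaled by genes under 1500 bases, and the inducible sum was at 1.175 after thinning. The standard list on day 7 turned from 0.904 to 1.11 after thinning. The other 6 changes of direction counted in this way were outside the main comparisons. In smooth muscle-like cells the standard list was at 0.991 on day 1 as the median of single genes and at 0.9985 on day 3 when scaled by genes under 1500 bases, and the inducible sum was at 1.06 on day 1 with classes from clusters and at 0.575 on day 3 with a mitochondrial limit of 5%. In oligodendrocyte-like cells the inducible sum on day 7 was at 1.04 with a mitochondrial limit of 5% and at 1.01 with classes from clusters. Doublets called by Scrublet were not left out as planned, because the caller marked 17, 617, 3 and 2 cells in the 4 libraries and so had not worked in 3 of them. No paired analysis was possible because each group held 1 library.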
